A study of Mus musculus with 18 samples.

Results

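The 5 simple epithelial keratins *Krt7*, *Krt8*, *Krt18*, *Krt19* and *Krt20* were followed across every cell cluster of the mouse stomach, 5 of 26114 gene names in dataset 1 and of 29195 in dataset 2. They were chosen by name, as the keratins of single-layered epithelia: *Krt8*, *Krt18* and *Krt19* as the broadly used members, and *Krt7* and *Krt20* as members linked to region and to maturity. The study had itself reported *Krt7* and *Krt20* as markers of antrum pit cells from dataset 1. Single cells of C57BL/6J wild-type male mice, 10 weeks old, were sorted into 384-well plates and their transcripts counted by Quartz-Seq2, which marks each molecule with a unique molecular identifier (UMI). Dataset 1 held ToPro3(-) cells of gastric units from the corpus, where acid is made, and from the antrum next to the duodenum. That is the gate in the labels, while the study's methods name propidium iodide as the dead-cell dye of dataset 1. Dataset 2 held Hoechst33342(+) ToPro3(-) cells of the corpus only. No mouse was treated or carried a transgene, and each dataset came as 2 biological replicates, each pooled from 3 mice and prepared by a different operator, so replicate and operator cannot be told apart.

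Keratins build intermediate filaments from obligate pairs of a type II and a type I chain. *Krt7* and *Krt8* encode type II chains, and *Krt18*, *Krt19* and *Krt20* encode type I chains. KRT8 and KRT18 are the founding pair of simple epithelia, KRT19 joins them in many ducts and mucosae, KRT7 is known from ducts and glands, and KRT20 from the surface cells of stomach and intestine. Pit cells line the gastric surface and secrete mucus, and arise from isthmus progenitor cells by way of pre-pit cells. Neck cells, chief cells and parietal cells make up the rest of the corpus gland.

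On GRCm39 the type II genes and *Krt18* lie on chromosome 15, *Krt7* at 101308924 to 101328194 on the plus strand, *Krt8* at 101905133 to 101912917 on the minus strand and *Krt18* at 101936615 to 101940462 on the plus strand. Only 23697 bases separate *Krt8* from *Krt18*, against 576938 between *Krt7* and *Krt8*. *Krt20* at 99319227 to 99328985 and *Krt19* at 100031636 to 100039491 are on the minus strand of chromosome 11, 702650 bases apart. Antisense RNA genes overlap *Krt7* (*Gm671*, 18 UMIs in dataset 1 and 114 in dataset 2) and *Krt8* (*Gm36026*, 66 and 352 UMIs), few beside the keratins' own 3479 and 3755 UMIs for *Krt7* and 48471 and 172581 for *Krt8*. *Gm73150* overlaps *Krt19* and had no row in the count tables.

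The start-site regions are shown because the neighbours *Krt8* and *Krt18* moved apart in the results that follow, while *Krt7* and *Krt20* were abundant in few clusters. Each runs from 250 bases before to 50 after the RefSeq start (GRCm38.p6): *Krt7* chr15:101412153-101412452 (plus), *Krt8* chr15:102004293-102004592 (minus), *Krt18* chr15:102027966-102028265 (plus) and *Krt20* chr11:99438104-99438403 (minus). The reference table used here had an entry for 4 of the 5 genes, and *Krt19* is named only. Capitals mark matches on either strand to the 5 motifs searched, TATAAA (the TATA box), GGGCGG (the box bound by SP1), TGANTCA (known from AP-1), AGATAA (known from GATA factors) and TTTATNG (known from CDX factors).
Krt7: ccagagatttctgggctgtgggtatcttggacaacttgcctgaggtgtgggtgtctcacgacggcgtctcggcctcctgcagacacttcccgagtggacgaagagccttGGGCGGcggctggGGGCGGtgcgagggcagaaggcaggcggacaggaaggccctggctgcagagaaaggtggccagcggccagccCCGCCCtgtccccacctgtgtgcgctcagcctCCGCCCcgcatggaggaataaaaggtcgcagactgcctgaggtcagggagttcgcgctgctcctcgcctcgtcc
Krt8: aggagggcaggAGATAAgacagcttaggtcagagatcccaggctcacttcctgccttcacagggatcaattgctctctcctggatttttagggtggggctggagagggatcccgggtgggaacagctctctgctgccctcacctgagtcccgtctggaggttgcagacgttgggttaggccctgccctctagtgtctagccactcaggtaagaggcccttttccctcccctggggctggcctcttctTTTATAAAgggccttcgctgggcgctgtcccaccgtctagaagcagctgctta
Krt18: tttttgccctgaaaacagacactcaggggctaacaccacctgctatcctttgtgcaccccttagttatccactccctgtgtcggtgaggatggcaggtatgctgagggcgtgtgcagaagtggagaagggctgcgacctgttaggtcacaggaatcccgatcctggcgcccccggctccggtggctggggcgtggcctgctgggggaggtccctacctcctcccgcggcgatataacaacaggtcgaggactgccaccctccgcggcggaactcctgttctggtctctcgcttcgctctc
Krt20: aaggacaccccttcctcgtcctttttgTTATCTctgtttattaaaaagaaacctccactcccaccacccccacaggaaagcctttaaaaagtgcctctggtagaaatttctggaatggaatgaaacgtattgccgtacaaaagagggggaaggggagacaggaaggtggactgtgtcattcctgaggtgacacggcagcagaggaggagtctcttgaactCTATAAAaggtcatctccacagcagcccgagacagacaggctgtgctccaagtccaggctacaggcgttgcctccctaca
*Krt7* had 4 GGGCGG matches, a motif present in 35.7% of 32851 promoters of this length. *Krt20* had TATAAA from base -29 to -24, found in 13.6% of promoters, together with an overlapping TTTATNG on the other strand (10.9%) and an AGATAA on the other strand (11.2%). *Krt8* had overlapping TATAAA matches on both strands at the annotated start and 1 AGATAA. *Krt18* held none of the 5 motifs, and TGANTCA (7.81% of promoters) was in none of the 4 windows. GC content was 66.3% for *Krt7*, 61.3% for *Krt18*, 58% for *Krt8* and 50% for *Krt20*, beside a median of 52.7% over all promoters. These matches describe letters and not bound sites.

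The authors kept 491 cells in 15 clusters of dataset 1, with 4489 to 161091 UMIs per cell, and 3993 cells in 20 clusters of dataset 2, with 4621 to 166610. Levels are given as CPM, the UMIs of a gene in 1000000 UMIs of the cells of a cluster in a replicate. Each molecule is counted once whatever its length, so CPM of different genes are set side by side here as UMI counts. How far genes differ in capture or in the mapping of their reads was not tested, and orders between genes carry that limit. Replicates are called tube1 and tube2 in dataset 1 and K and T in dataset 2. Clusters carry the names in the study's text where it gives them, and the others were named "-like" from 3 marker genes each. Epithelial clusters had *Epcam*, *Cdh1* and *Cldn18* at a sum of 726 CPM or more in each replicate, against at most 233 CPM in stromal-like, endothelial-like and macrophage-like clusters.

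In dataset 2 *Krt8*, *Krt18* and *Krt19* were present in all epithelial clusters, and their order differed by cell type. In mature pit cells (121 cells) *Krt19* was at 3572 CPM in K and 5409 in T. *Krt8* was at 2932 and 3659 CPM there. *Krt18* was at 1355 and 1492 CPM. The mucous surface cells thus had *Krt19* at the highest level of the 5 keratins, above *Krt8* and then *Krt18* in both replicates.

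**Figure D1:**
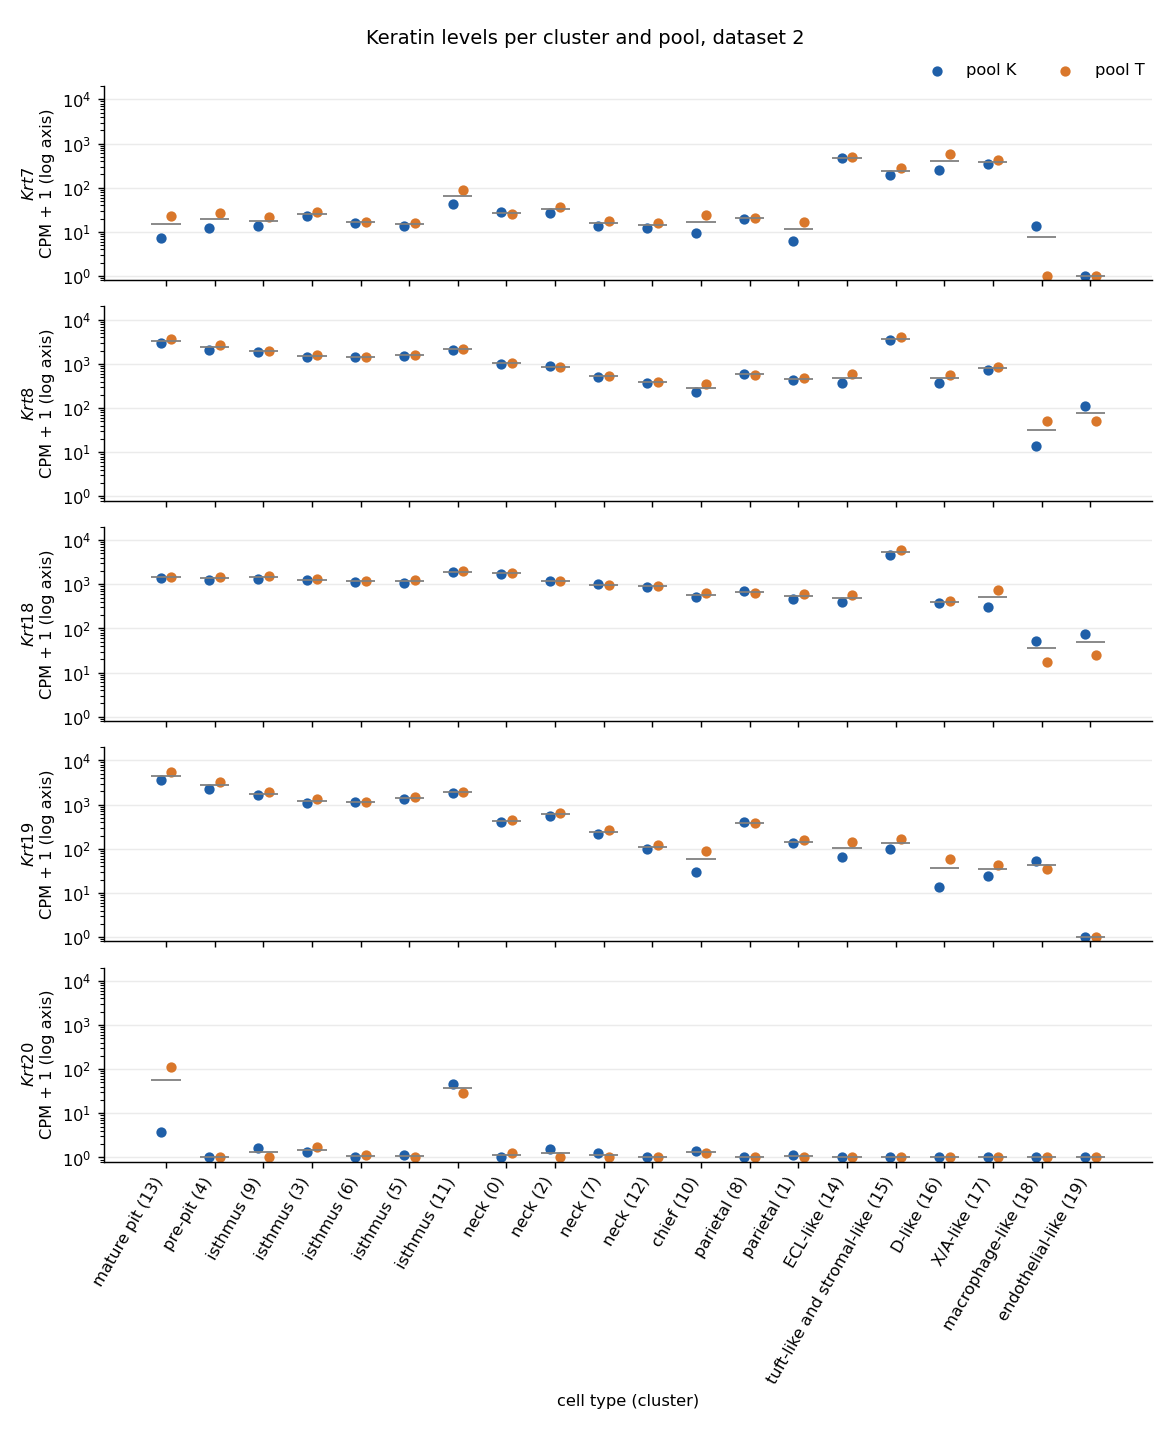
Level of each keratin in the 20 clusters of dataset 2, as CPM + 1 on a log axis, with 1 point for each replicate (pool in the legend, K and T) and a dash for their mean. *Krt8* and *Krt19* are lower in neck, chief and parietal clusters than in pit and isthmus clusters, *Krt18* is at its highest in the tuft-like cluster (4686 and 5827 CPM), and *Krt7* is at its highest in endocrine-like clusters.

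In neck cells the order was turned. The 4 neck clusters had *Krt18* between 888 and 1839 CPM over their replicates, *Krt8* between 372 and 1069 and *Krt19* between 100.1 and 662 CPM. *Krt18* was the highest of the 3 in each neck cluster and replicate. Chief cells (180 cells), which secrete pepsinogen, had *Krt18* at 521 and 641 CPM, *Krt8* at 235 and 347 and *Krt19* at 29.3 and 86.4. The acid-secreting parietal cells of clusters 1 and 8 had *Krt18* at 472 to 694 CPM, *Krt8* at 434 to 599.8 and *Krt19* at 132 to 403. Dataset 1 gave the same order of *Krt19*, *Krt8* and *Krt18* in corpus mature pit cells (tube1 7194, 4134 and 1189 CPM, tube2 6802, 3902 and 1199) and *Krt18* first in neck cells (1185 and 1028 CPM).

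Pre-pit cells were compared with isthmus progenitor cells to ask how keratins change as cells enter the pit lineage. All 5 keratins were tested with edgeR's quasi-likelihood test with Benjamini-Hochberg adjustment over all genes, on sums per cell type and replicate. Because the clusters were themselves built by the authors from these counts, the p-values carry the clustering with them. *Krt8* was at 1583 and 1687 CPM in isthmus cells and at 2121 and 2690 in pre-pit cells, and *Krt19* at 1330 and 1491 against 2204 and 3313. The groups did not overlap for either gene. With 2 values in each group, such separation, here and below, describes the values and is not a test. Its share over all genes was not counted. *Krt8* rose by 0.77 ± 0.19 (log2 fold change ± SE, n = 2 replicates) with an edgeR adjusted p of 0.0072, and *Krt19* by 1.19 ± 0.31 with an adjusted p of 0.0125. DESeq2 gave *Krt19* an adjusted p of 0.0582. *Krt18* (1236 and 1399 against 1263 and 1474 CPM) overlapped between groups, with 0.27 ± 0.15 and an edgeR adjusted p of 0.2. With the replicate as a block, *Krt18* had an adjusted p of 0.0121. *Krt7* did not differ detectably (-0.08 ± 0.42, edgeR adjusted p of 0.915). *Krt20*, at 0 UMIs in pre-pit cells, had an edgeR adjusted p of 0.115 and a DESeq2 adjusted p of 0.00164. Without isthmus cluster 11, an alternative chosen after seeing the data, the edgeR adjusted p of *Krt20* was 0.71. In all 2 of 5 keratins were called, where 27.8% of all genes were. Without replicate T of the pre-pit cells 0 were called, and without replicate K of the isthmus cells 1.

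Mature pit cells against pre-pit cells addressed the last step of the lineage. *Krt8* (2932 and 3659 against 2121 and 2690 CPM) and *Krt19* (3572 and 5409 against 2204 and 3313) were higher in mature pit cells in both replicates, without overlap. The differences were 0.59 ± 0.19 for *Krt8* (edgeR adjusted p of 0.0609) and 0.84 ± 0.31 for *Krt19* (0.112), and *Krt18* had 0.19 ± 0.15 (0.479). By edgeR's quasi-likelihood test 0 of these 3 were called, where 10.4% of all genes were; 2 of 3 had an unadjusted p under 0.05, and DESeq2 called 1. With the replicate as a block, which takes the higher levels in T into account, *Krt8* (adjusted p of 0.00078) and *Krt19* (0.0033) were called. *Krt7* and *Krt20* were chosen for their link to maturity and are described without a test. *Krt7* was at 6.46 and 22.3 CPM in mature pit cells and 11.3 and 25.8 in pre-pit cells, so the groups overlapped.

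The replicate difference could be followed by plate, since each replicate filled 6 plates. The plates of 1 replicate are technical repeats. In mature pit cells *Krt19* was at 3189 to 4436 CPM on the plates of K and 4800 to 5823 on those of T, and *Krt8* at 2810 to 3047 and 3363 to 3969. In pre-pit cells *Krt19* was at 2052 to 2471 and 2908 to 3696 CPM. For these genes the plates of K and T did not overlap. *Krt18* in mature pit cells was at 1188 to 1410 and 1366 to 1607 CPM, and there the plates overlapped.

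**Figure D2:**
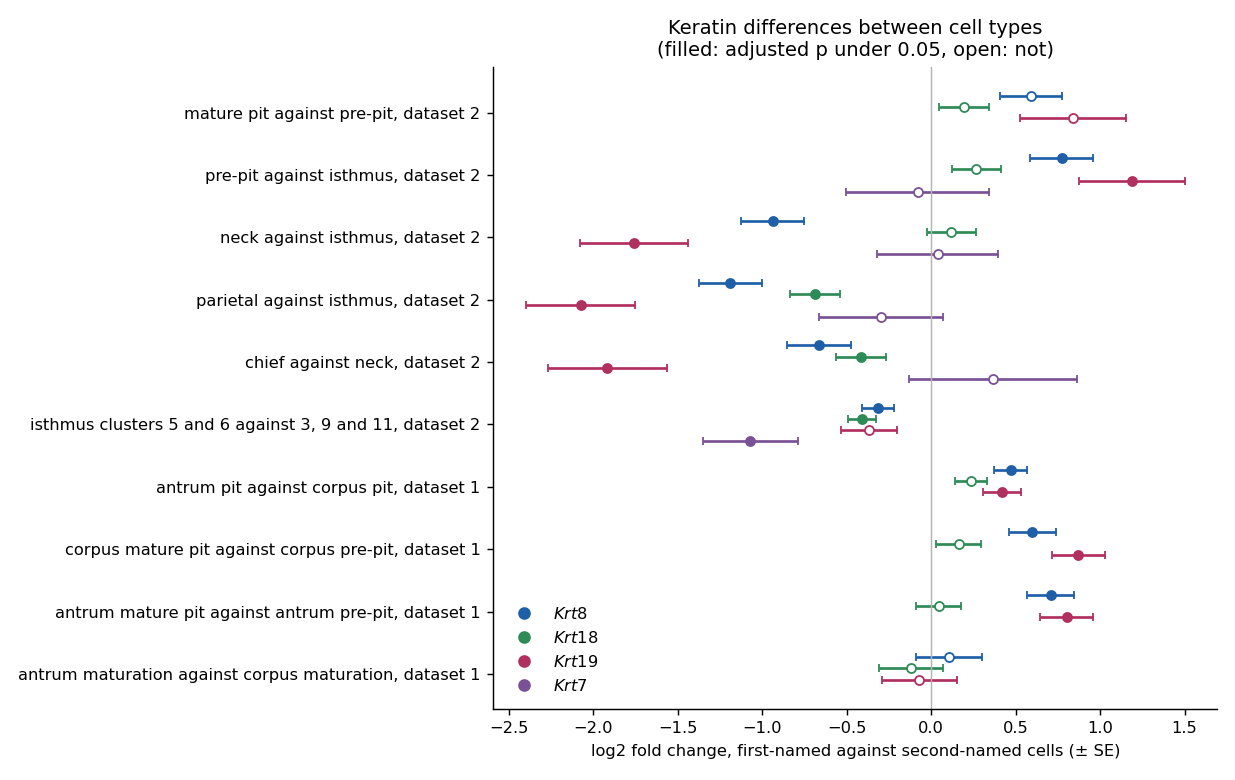
Fitted log2 fold change of *Krt8*, *Krt18*, *Krt19* and *Krt7* in each comparison, as points with bars of 1 SE, and filled where the adjusted p was under 0.05; *Krt20* is left out because its fitted values depend on the prior count. *Krt8* and *Krt19* are above 0 in the pit comparisons other than the difference of the 2 maturation changes, and below 0 in the neck, parietal and chief comparisons, with *Krt18* nearer to 0 than both in these comparisons.

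Toward the gland base *Krt8* and *Krt19* fell, while *Krt18* and *Krt7* were not called in neck cells. Against isthmus cells, neck cells had *Krt8* at 736 and 894 CPM and *Krt19* at 375 and 423. Neither overlapped the isthmus values. *Krt8* fell by 0.94 ± 0.19 on the log2 scale (edgeR adjusted p of 0.00092) and *Krt19* by 1.76 ± 0.32 (0.00046). *Krt18* (1220 and 1513 CPM) had 0.12 ± 0.15 and an edgeR adjusted p of 0.52, and *Krt7* 0.04 ± 0.36 and 0.938. The neck clusters differed in *Krt18*, with means of 1769 CPM in cluster 0, 1192 in 2, 980 in 7 and 904 in 12. Cluster 0 gave 5729 of the 17739 neck *Krt18* UMIs in K and 15157 of 21218 in T. The part of this uneven mix in the neck values of *Krt18* was not tested. *Krt20* was called lower (edgeR adjusted p of 0.0253), as *Krt8* and *Krt19* were, so that 3 of 5 were called where 50.7% of all genes were. This *Krt20* call rested on isthmus cluster 11: without it, an alternative chosen after seeing the data, the log2 fold change was 0.0235 and the adjusted p 0.996. The call was also lost without isthmus K, neck K or neck T (edgeR adjusted p of 0.0515, 0.0831 and 0.097).

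Parietal cells had *Krt8* at 488 and 525 CPM, *Krt18* at 544 and 614 and *Krt19* at 219 and 254, all below every isthmus value. *Krt8* fell by 1.19 ± 0.19, *Krt18* by 0.69 ± 0.15 and *Krt19* by 2.07 ± 0.32 on the log2 scale, with edgeR adjusted p of 5.96e-05, 0.00086 and 5.28e-05. CPM divides by total UMIs alone, while the fit also applies factors for library composition (TMM). These fitted falls are smaller than those in CPM. *Krt7* had -0.3 ± 0.37 (edgeR adjusted p of 0.484). Of 5 keratins 4 were called, where 71.8% of all genes were, and the fourth, *Krt20* (edgeR adjusted p of 0.0132), had 2 and 0 UMIs in parietal cells and an adjusted p of 0.707 without isthmus cluster 11, and 0.0653 and 0.0744 without parietal K or T.

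Chief cells against neck cells, the cells next to them in the gland, had *Krt19* lower by 1.92 ± 0.35 on the log2 scale (edgeR adjusted p of 0.00068). *Krt8* fell by 0.66 ± 0.19 (0.0134) and *Krt18* by 0.42 ± 0.15 (0.041). *Krt7* had 0.37 with an adjusted p of 0.607 by the same test. CPM lacks the composition factors (TMM) used in the fit. Mean CPM in chief against neck cells were 291 against 815 for *Krt8* and 581 against 1366 for *Krt18*. For *Krt19* they were 57.85 against 399, and for *Krt7* 15.7 against 22.9. The fitted falls are thus smaller than those in CPM, and *Krt7* has the opposite sign in CPM. Of 5 keratins 3 were called, where 38.6% of all genes were. In chief cells of T, 1 cell held 43.2% of the *Krt19* UMIs (143 of 331). The *Krt19* difference was -3.02 without chief replicate T and -1.41 without chief replicate K, and that of *Krt8* was -1.04 without chief replicate T and that of *Krt18* -0.64. Without chief replicate K or neck replicate T only *Krt19* was called, and DESeq2 gave *Krt18* an adjusted p of 0.107.

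Within the isthmus, clusters 5 and 6 were compared with clusters 3, 9 and 11. Cluster 11 (179 cells) had *Krt18* at 1894 and 1995 CPM and *Krt7* at 41.7 and 87.5, and the other 4 isthmus clusters had *Krt18* at 1064 to 1524 and *Krt7* at 12.4 to 26.7. Clusters 5 and 6 were lower in *Krt7* (-1.07 ± 0.28, edgeR adjusted p of 0.0051), *Krt8* (-0.32 ± 0.09, 0.0132) and *Krt18* (-0.41 ± 0.08, 0.00059). *Krt19* had -0.37 ± 0.17 and 0.099 (0.0114 with the replicate as a block). So 3 of 5 were called, where 31.1% of all genes were. Against clusters 3 and 9 only, also chosen after seeing the data, edgeR called 0 of 5, with *Krt18* at -0.23 and an adjusted p of 0.0741. There 1 had an unadjusted p under 0.05, and DESeq2 called 0. Without replicate K of cluster 5, *Krt8* was not called (edgeR adjusted p of 0.0759).

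Dataset 1 allowed pit cells of antrum and corpus to be compared. *Krt8* was at 5675 and 5673 CPM in antrum mature pit cells (49 cells) and 4134 and 3902 in corpus mature pit cells (26 cells). *Krt19* was at 8946 and 9005 against 7194 and 6802 CPM. Both genes were higher in the antrum without overlap, and the same held for pre-pit cells (*Krt8* 4429 and 3968 against 2825 and 3225, *Krt19* 6508 and 5930 against 4057 and 4671 CPM). Over both stages *Krt8* was higher by 0.47 ± 0.1 (edgeR adjusted p of 0.0036) and *Krt19* by 0.42 ± 0.11 (0.0188), and *Krt18* had 0.24 ± 0.09 (0.14). Of 3 keratins tested 2 were called, where 9.24% of all genes were. *Krt19* lost its call in 5 of 8 fits that left out 1 sum, those without either antrum mature pit replicate, tube1 of the antrum pre-pit, tube2 of the corpus mature pit or tube1 of the corpus pre-pit cells (edgeR adjusted p of 0.0556 to 0.121).

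**Figure D3:**
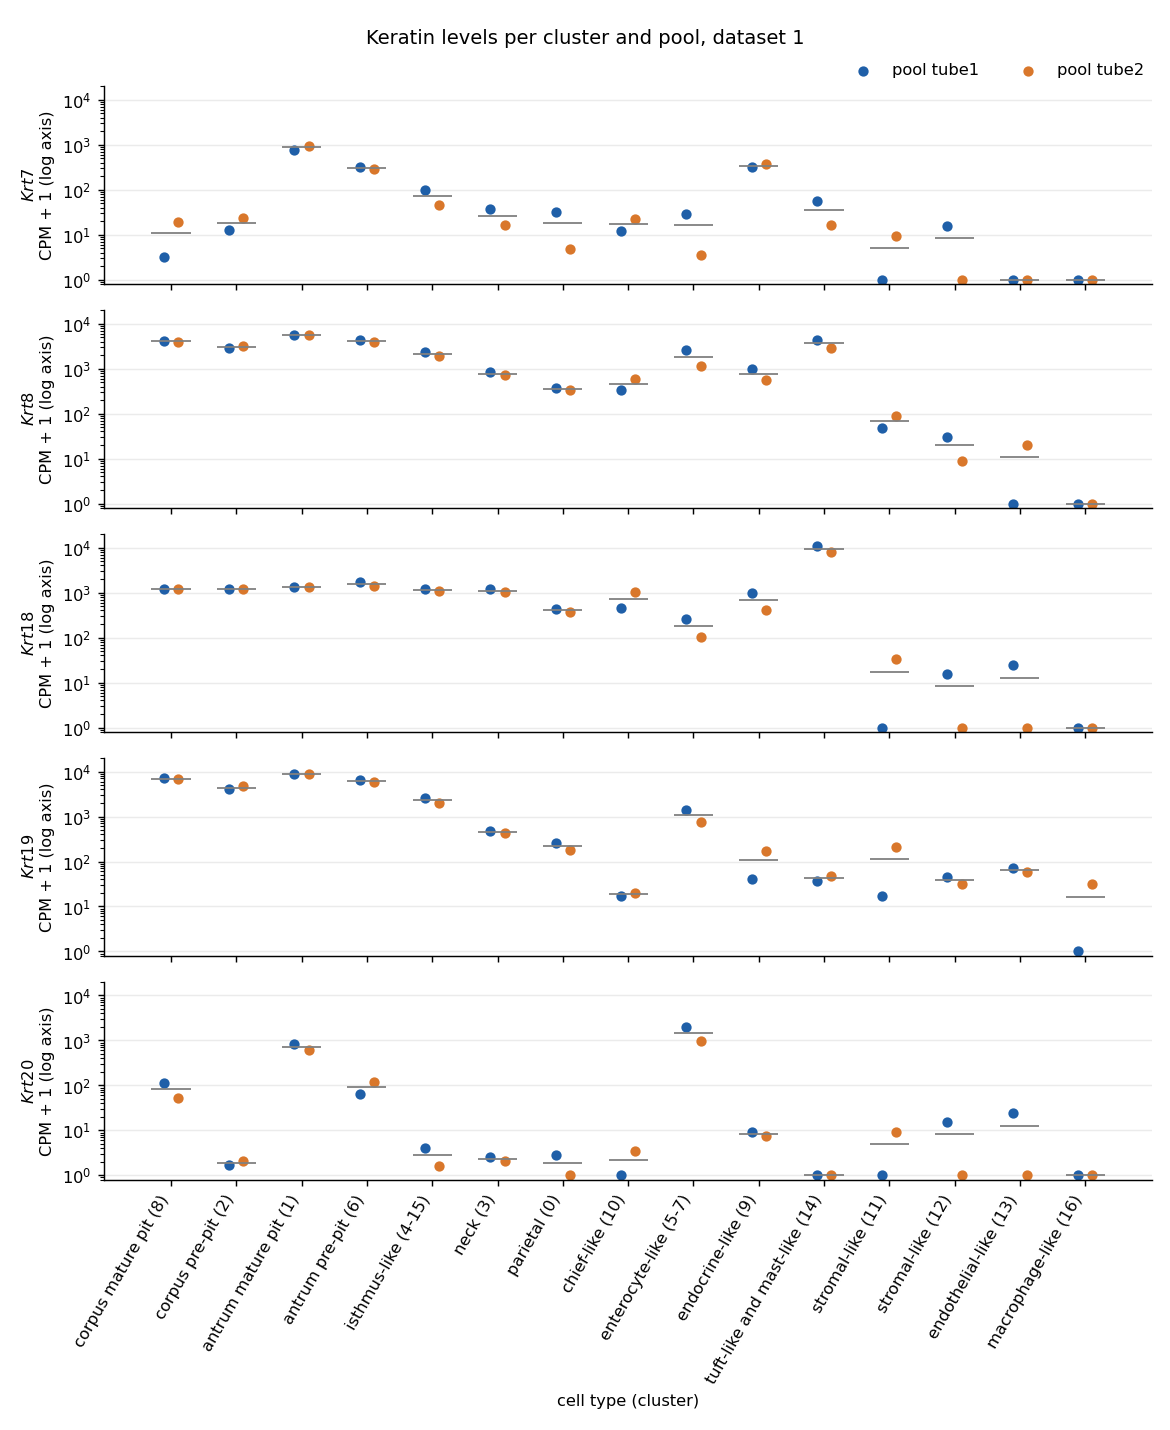
Level of each keratin in the 15 clusters of dataset 1, as CPM + 1 on a log axis, with 1 point for each replicate (pool in the legend, tube1 and tube2) and a dash for their mean. *Krt7* reaches 771 and 956 CPM in antrum mature pit cells against 2.2 and 17.7 in corpus mature pit cells, and *Krt20* is highest in the enterocyte-like cluster.

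Maturation within each region moved the same pair. In the corpus *Krt8* rose by 0.6 ± 0.14 (edgeR adjusted p of 0.0068) and *Krt19* by 0.87 ± 0.16 (0.0011), 2 of 3 called where 12.9% of all genes were. In the antrum *Krt8* rose by 0.71 ± 0.14 (edgeR adjusted p of 0.002) and *Krt19* by 0.8 ± 0.16 (0.002), 2 of 3 called where 14% of all genes were. *Krt18* was not called in either region (0.16 and 0.05, edgeR adjusted p of 0.47 and 0.881). Its CPM means were slightly lower in mature than in pre-pit cells (1194 against 1217 in the corpus and 1325 against 1550 in the antrum). CPM lacks the composition factors (TMM) used in the fit. The difference of the 2 maturation changes was 0.11 ± 0.2 for *Krt8*, -0.12 ± 0.19 for *Krt18* and -0.07 ± 0.22 for *Krt19*. edgeR called 0 of these 3, where 0.0293% of all genes were called, 0 had an unadjusted p under 0.05 and DESeq2 called 0. Without tube1 of the corpus mature pit cells or of the corpus pre-pit cells, *Krt8* in the corpus was not called (edgeR adjusted p of 0.0769 and 0.127).

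*Krt7* marked the antrum side of the pit lineage. The study had named it an antrum pit cell marker from these same cells. The difference between regions repeats that choice and is given as a description. It was at 771 and 956 CPM in antrum mature pit cells and 310 and 290 in antrum pre-pit cells. In the corpus it was at 2.2 and 17.7 CPM in mature pit cells, from 2 and 14 UMIs, and at 11.5 and 22.6 in pre-pit cells. All antrum values lay above all corpus values. After each cell was thinned to 10000 UMIs, to take out differences in depth, *Krt7* was found in 91.8% of antrum mature pit cells (exact 95% interval 80.4 to 97.7), 65.6% of antrum pre-pit cells (46.8 to 81.4) and 15.4% of corpus mature pit cells (4.36 to 34.9). These intervals cover counting error only. Unthinned shares were 95.9%, 78.1% and 30.8%, with 0 cells of these clusters left out as too shallow.

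Outside the pit lineage *Krt7* was highest in endocrine cells. In dataset 2 the histamine-releasing ECL-like cells (53 cells, *Hdc*) had 470 and 486 CPM, the somatostatin D-like cells (31 cells) 246 and 571 and the ghrelin X/A-like cells (29 cells) 351 and 425. The D-like replicates overlapped both other clusters, and ECL-like lay above X/A-like cells. Cluster 15, which holds tuft-like and stromal-like cells, came next (198 and 278 CPM) and overlapped replicate K of the D-like cells. At 10000 UMIs per cell *Krt7* was found in 96.1% of ECL-like, 100% of D-like and 93.1% of X/A-like cells (unthinned 100%, 96.8% and 96.6%; 2, 4 and 0 cells left out). In mature pit cells of the same dataset the share was 12.8% and in chief cells 11.1%. Endocrine-like cells of dataset 1 (24 cells) had *Krt7* at 318 and 364 CPM. *Krt19* was low in the same cells, at 12.6 to 145 CPM over the endocrine-like sums of dataset 2.

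*Krt20* was carried by few clusters. In dataset 1 it was highest in enterocyte-like cells (1987 and 957 CPM, 69 of 70 cells with a UMI), which had the intestinal absorptive markers *Fabp2*, *Apoa1* and *Alpi*. Antrum mature pit cells had 832 and 598 CPM (47 of 49 cells), antrum pre-pit cells 62.2 and 118 (12 of 32 cells), corpus mature pit cells 114 and 50.6 (9 of 26 cells) and corpus pre-pit cells 1 UMI in each replicate. Mature pit cells were above pre-pit cells of corpus in both replicates and of antrum in both replicates. Single cells held much of the *Krt20* where it was sparse: 1 cell had 61.5% of the UMIs of corpus mature pit cells in tube1 (64 of 104), 1 had 70% in tube2 (28 of 40), and 1 had 91.2% of those of antrum pre-pit cells in tube2.

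In dataset 2 only 14 of 121 mature pit cells had a *Krt20* UMI. In K it was 1 cell with 6 UMIs, and in T 13 cells on 6 plates with 315 UMIs, up to 86 in a cell, so the sums were 2.77 and 108 CPM. The replicates differed far more in *Krt20* than in the other keratins. Pre-pit cells had 0 UMIs in 291 cells, which allows a share of up to 1.03% of cells with a UMI. The 14 cells with *Krt20* had *Gkn2* at 49829 CPM and *Tff1* at 47671, both secreted by pit cells, and the 107 cells without it had 50393 and 45526. *Krt7* was at 67.4 CPM in the former (9 of 14 cells) and 9.85 in the latter (27 of 107 cells), and the antrum factor *Pdx1* was at 5.95 CPM (3 UMIs in 2 of 14 cells) against 0.875 (4 UMIs in 3 of 107 cells). These cells were grouped by their own *Krt20* count, so the values are a description.

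**Figure D4:**
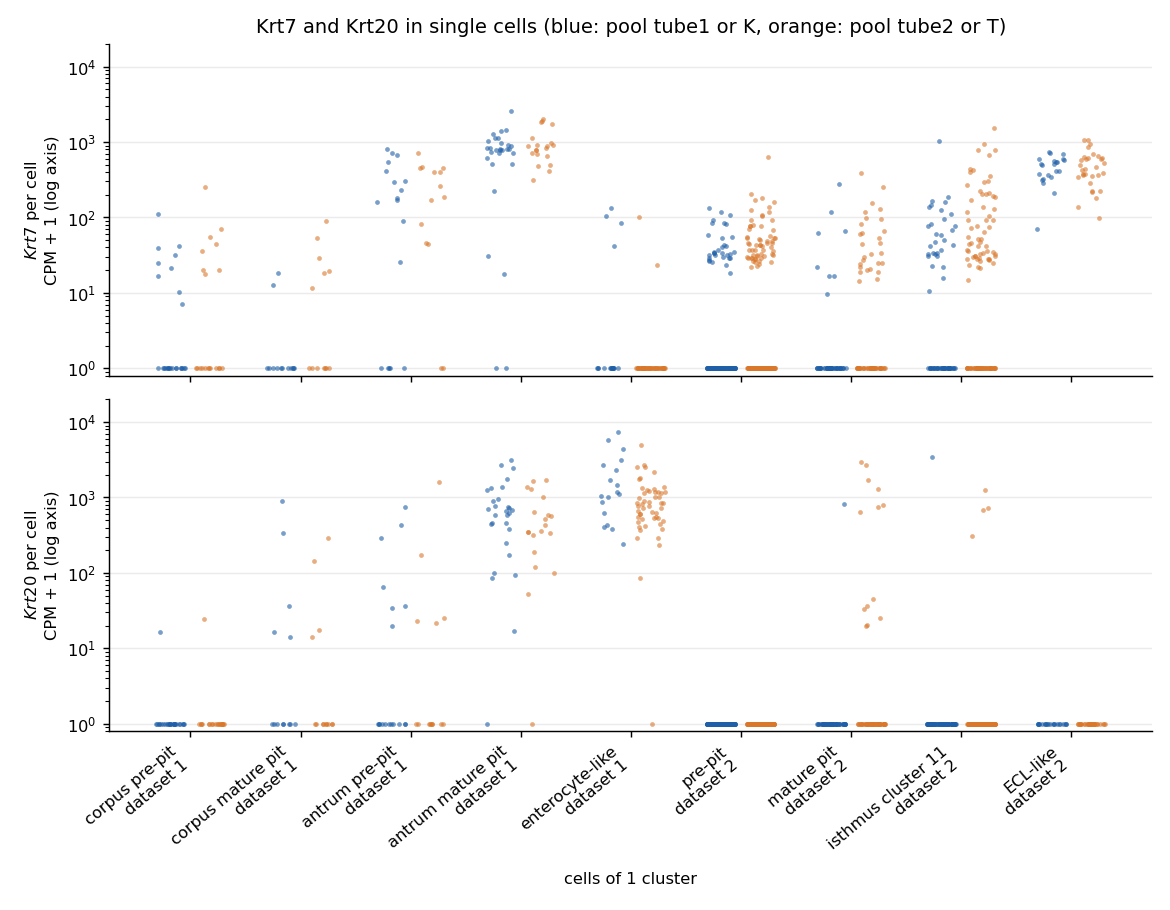
*Krt7* and *Krt20* in single cells of the pit, enterocyte-like and ECL-like clusters and isthmus cluster 11, 1 point per cell, as CPM + 1 of the cell on a log axis, in blue for tube1 or K and orange for tube2 or T. Antrum mature pit cells carry both genes (47 of 49 with *Krt20*, 47 of 49 with *Krt7*), and in corpus mature pit cells *Krt20* was in 9 of 26 (dataset 1) and 14 of 121 (dataset 2).

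Isthmus cluster 11 held nearly all *Krt20* of the isthmus, 107 UMIs in 1 cell of K and 108 UMIs in 4 cells of T. These 5 cells had *Krt7* at 836 CPM against 48.6 in the 174 other cells of the cluster, and the pit mucin *Muc5ac* at 23.7 against 1640. In 1 of the 5 the squamous markers *Krt5* (228 UMIs), *Krt14* (138) and *Trp63* (7) were counted, and the 174 other cells had 0 UMIs of each. The part of these cells in the cluster's higher *Krt7* was not tested.

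Tuft cells, the rare chemosensory cells, had the highest *Krt18*. Cells with tuft markers (*Dclk1*, *Pou2f3*, *Trpm5*) were separated from the stromal-like or mast-like cells sharing their cluster. In dataset 2 these 25 cells had *Krt18* at 5725 and 6057 CPM, *Krt8* at 4241 and 4165, *Krt7* at 194 and 277, *Krt19* at 94.7 and 178 and no *Krt20* UMI. In dataset 1 the 8 tuft-like cells had *Krt18* at 12025 and 13608 CPM, *Krt8* at 4963 and 4869 and only 4 *Krt7* UMIs. High *Krt8* thus came with low *Krt19* in tuft-like cells and with high *Krt19* in mature pit cells.

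The ratio of *Krt8* to *Krt18* showed how far the classical pair departed from equal UMI counts. It was 2.16 and 2.45 in mature pit cells of dataset 2, 1.68 and 1.82 in pre-pit cells, 0.418 and 0.431 in neck cluster 12 and 0.451 and 0.541 in chief cells. In dataset 1 it was 4.36 and 4.2 in antrum mature pit cells, 3.48 and 3.25 in corpus mature pit cells and 10.1 and 11 in enterocyte-like cells. The ratio of type II UMIs (*Krt7*, *Krt8*) to type I UMIs (*Krt18*, *Krt19*, *Krt20*, *Krt23*) varied less over the pit, isthmus, neck, chief and parietal clusters of dataset 2. Its means there were 0.333 in neck cluster 12 to 0.626 in parietal cluster 1, against 0.425 to 2.31 for *Krt8* to *Krt18*. Type II to type I was above 1 in each replicate of the endocrine-like clusters, with means of 1.62 (ECL-like), 1.98 (D-like), 2.37 (X/A-like) and 1.39 (dataset 1).

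**Figure D5:**
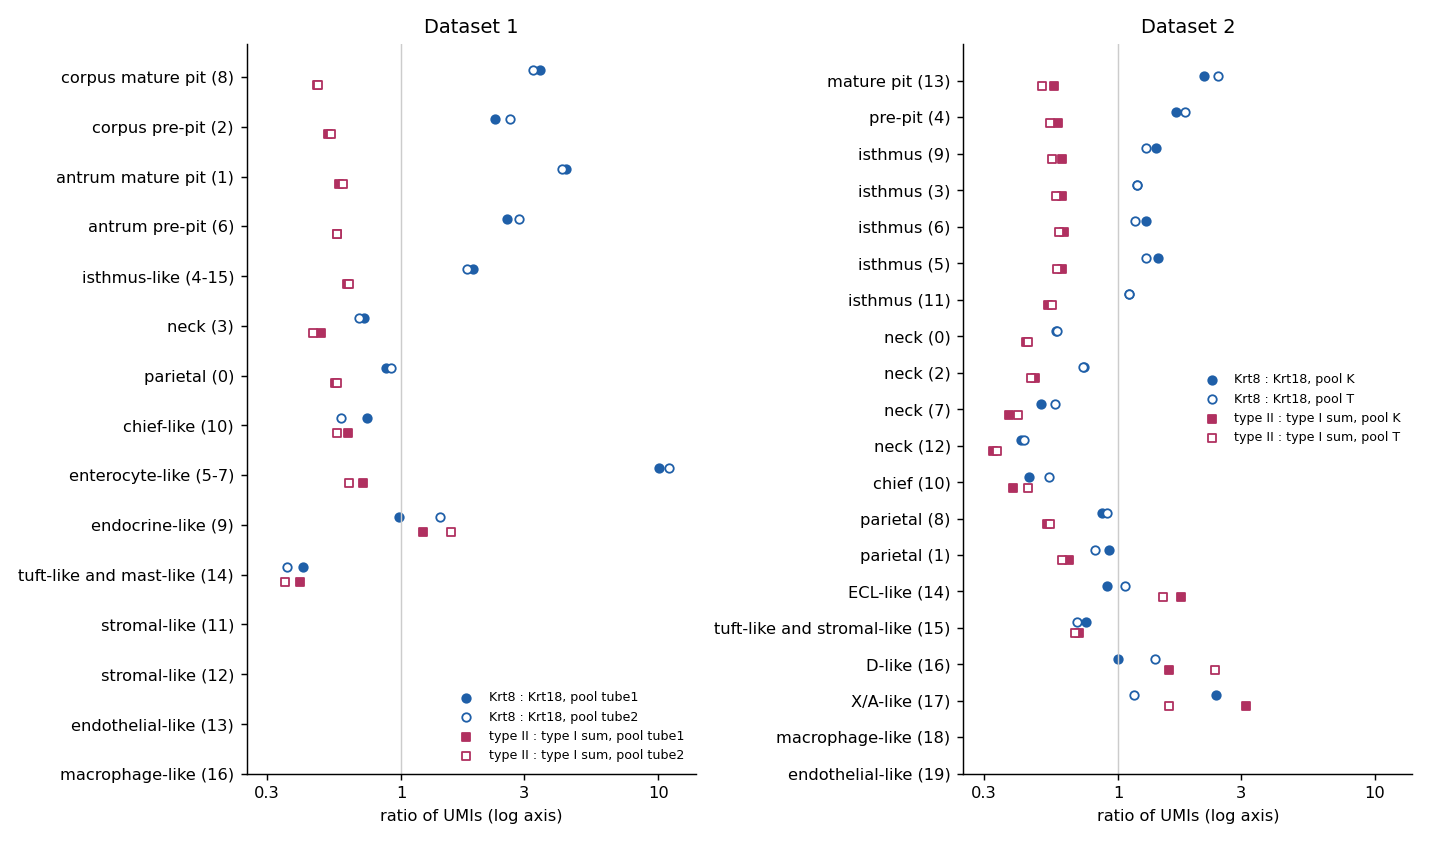
Ratio of *Krt8* to *Krt18* UMIs and of type II to type I keratin UMIs by cluster, on log axes, with 1 point for each replicate; clusters with under 10 UMIs in a term have no point. *Krt8* to *Krt18* spans from 0.358 to 11 over the clusters of dataset 1, and type II to type I is above 1 in endocrine-like clusters.

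Cells that are not epithelial had few keratin UMIs. The highest value among stromal-like, endothelial-like and macrophage-like clusters was 211 CPM of *Krt19* in tube2 of stromal-like cluster 11 in dataset 1, from 26 UMIs, a sum in which the pit markers *Muc5ac*, *Gkn2* and *Tff1* came to 9887 CPM. *Krt8* was at 0 to 108 CPM in these clusters. Of the 13 macrophage-like cells of dataset 2, only 5 reached 10000 UMIs, and *Krt8* was found in 2 of them (40%, exact 95% interval 5.27 to 85.3).

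Over the 20 clusters of dataset 2, the Pearson r of log2(CPM + 1) was 0.93 between *Krt8* and *Krt18*, 0.77 between *Krt8* and *Krt19*, 0.08 between *Krt7* and *Krt19* and 0.26 between *Krt18* and *Krt20*. Over the 15 clusters of dataset 1 these were 0.94, 0.73, 0.55 and 0.12. Clusters share libraries and differ in depth, so these describe the pattern. In dataset 2 the clusters span macrophage-like cells (*Krt8* 31.4 and *Krt18* 34.2 CPM) to the tuft-like cluster (3764 and 5256). How much r owes to such extremes was not tested. The genes most like each keratin in dataset 2, of 13759, were *Nedd4l* for *Krt7* (r of 0.93, and 0.47 in dataset 1), *Kmt5a* for *Krt8* (0.96 and 0.83), *Nectin2* for *Krt18* (0.96 and 0.86), *Gsta4* for *Krt19* (0.96 and 0.95) and *Duoxa2* for *Krt20* (0.98 and 0.54). The desmosome gene *Pkp2* was the third most like *Krt18* (0.95 and 0.87). In dataset 2 *Krt20* was at 55.5 CPM in mature pit cells, 36.4 in isthmus cluster 11 and at most 0.514 in any other cluster. Its r values there rest on those clusters.

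Other filament and anchoring genes gave a setting for these changes. Of 17 genes of desmosomes and cytolinkers, which tie keratins to the cell membrane, 13 were tested in dataset 2. From isthmus to pre-pit cells 7 rose and 1 fell, with a median log2 fold change of 0.31 beside 0.00219 over all genes, including desmoplakin *Dsp* (0.64 ± 0.09, edgeR adjusted p of 0.000145) and *Jup* (0.48 ± 0.14, 0.0196). From isthmus to neck cells 0 rose and 9 fell, with a median of -0.5 beside 0.06. *Dsp* fell by 0.35 ± 0.09 (edgeR adjusted p of 0.0052) and *Jup* by 0.57 ± 0.14 (0.0036). In mature against pre-pit cells 4 rose and 0 fell in dataset 2 (median 0.29 beside -0.02). In dataset 1, of 12 tested, 5 rose in the corpus (median 0.52 beside -0.03 over all genes, of which 12.9% were called) and 6 in the antrum (0.65 beside -0.00202, with 14% called), with 0 falling. Parietal against isthmus cells had 2 higher and 8 lower (median -0.57 beside -0.05 over all genes), and chief against neck cells 1 higher and 6 lower (-0.36 beside -0.07). Over all genes 27.8% were called from isthmus to pre-pit cells, 50.7% to neck cells and 71.8% to parietal cells, 38.6% between chief and neck cells, and 10.4% between mature and pre-pit cells of dataset 2, so the 10 of 13 called in parietal cells lie near that background.

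Among the other keratins, *Krt23*, a type I keratin, was the most abundant. It rose from isthmus to pre-pit cells (0.97 ± 0.11, edgeR adjusted p of 1.58e-05) and from pre-pit to mature pit cells (0.61 ± 0.11, 0.0033). Of 5 other keratins tested, 1 was called in the first step and 2 in the second, where 27.8% and 10.4% of all genes were. *Krt10*, the next most abundant, was not called in either (-0.48 ± 0.22 and -0.18 ± 0.33, edgeR adjusted p of 0.13 and 0.801). *Krt23* was also higher in neck than in isthmus cells (0.62 ± 0.1, edgeR adjusted p of 0.00028), where *Krt8* and *Krt19* fell. Of the 5 other keratins tested there, *Krt23* was the 1 called higher, and *Krt15*, *Krt79* and *Krt80* were called lower, with a median log2 fold change of -1.44. Over all genes 50.7% were called there, with a median of 0.06. In the antrum *Krt23* was lower than in the corpus (-0.59 ± 0.13, edgeR adjusted p of 0.0041), opposite in sign to *Krt8* and *Krt19*. It was the 1 called of 5 other keratins tested, where 9.24% of all genes were called. Their median was 0.35, and *Krt79*, the next most abundant, had 0.95 ± 0.33 (edgeR adjusted p of 0.0818). Of 13 other intermediate filament genes 5 were tested in dataset 2. From isthmus to pre-pit cells 0 rose and 3 fell (*Lmnb1*, *Lmnb2* and *Synm*), where 27.8% of all genes were called. The nuclear lamin *Lmnb2* fell from isthmus to pre-pit cells by 1.07 ± 0.1 (edgeR adjusted p of 3.09e-06), and *Lmna* was not called there (-0.15 ± 0.14, 0.484). *Lmna* was higher in antrum than in corpus pit cells by 0.8 ± 0.11 (edgeR adjusted p of 5.15e-05).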

How the data were processed

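Cells were sorted singly into 384-well plates and measured by Quartz-Seq2, 6 plates in dataset 1 and 12 in dataset 2. Per the labels and the study's methods, the authors used bcl2fastq 2.20.0.422, Drop-seq tools and STAR on GRCm39 with GENCODE gene models, and clustered with Seurat. Whether counting used strand is not given in the sources used here. The deposited counts are whole UMI counts per gene and well, not normalized, in tables of the kept cells and of whole plates. The authors' annotation gives each cell's cluster, its total and its percent of mitochondrial UMIs. Kept cells had at least 2501 detected genes. In all 4 replicate pools, totals and detected genes of the kept cells were the same in both tables. Within a dataset all plates use the same 384 barcodes by design, so a cell is named by plate and barcode. Columns of per-sample values left unused numbered 0.

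Each replicate gave 1 sum of counts per cell type, because cells of 1 suspension share their source, and these sums entered edgeR 4.0.16 (R 4.3.3; TMM, filterByExpr, glmQLFit, glmQLFTest). The threshold for a call was 0.05 after Benjamini-Hochberg adjustment over all genes tested. The SE was taken as the absolute fold change (log2) divided by the root of F. The edgeR steps were tested on counts simulated without shifts shared within a replicate. That check cannot show how the fits behave where such shifts are present. Shares of cells used cells thinned to 10000 UMIs (5000 as an alternative) with Python 3.11.15 and scipy 1.17.1, and exact Clopper-Pearson intervals. A count of 0 was given an upper limit of 3 UMIs. No doublet caller was run; leaving out cells above the 95th percentile of UMIs of their type stood in. Plate sums needed at least 3 cells. DESeq2 1.42.0, RLE factors, no filter, a replicate block, plate sums, no mitochondrial genes and leaving out each sum were the alternatives.

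Each replicate came from 3 mice per the study's methods, while the labels do not settle whether both suspensions of a dataset shared them. The p-values rest on the spread between these preparations within a cell type or cluster, pooled over all sums of a fit. Cell types of a replicate come from the same suspension, so replicates pair them. The main fits had no term for this pairing, and the replicate block had 1. Their deviations correlated with a median of 0.132 over 15 pairs of types in dataset 2 (0.0689 to 0.411, 12 above 0.1) and 0.0245 over 21 pairs in dataset 1 (-0.0287 to 0.0533). Members and gene lists were chosen with earlier results of these data known. Named beside the members were the members of 3 lists, with values for the 2 highest in mean CPM, and the genes most like each member among those with at least 100 UMIs.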

Additional observations from a re-analysis of the deposited data

Results flagged for a closer look

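Plates were compared within each replicate for the mature pit and pre-pit cells of dataset 2, and in 4 of 18 groups of 6 plates 1 plate stood apart from the rest by Dixon's test, which flags about 1 in 20 groups by chance. All 4 were in mature pit cells. In K, 1 plate had *Krt18* at 1188 CPM, 1 had *Krt19* at 4436 CPM and 1 had *Krt20* at 16.45 CPM while the other 5 had 0. The *Krt20* value came from 6 UMIs in 1 cell, and with 5 plates at 0 any value of the sixth would stand apart, so it carries no weight in that count. In T, 1 plate had *Krt7* at 65.75 CPM beside a median of 17.5.

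*Krt7* was higher in mature than in pre-pit cells of the antrum in both replicates of dataset 1. In the corpus it was lower in mature cells within each replicate, but the stages overlapped (2.2 and 17.7 against 11.5 and 22.6 CPM), and at 10000 UMIs per cell *Krt7* was found in 15.4% of mature and 9.09% of pre-pit cells there, so no direction is read for the corpus. The difference between the changes of the regions was 571.1 CPM on average and was not tested.

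Wells that the authors did not keep also held keratin UMIs. In the 948 and 865 such wells of dataset 1 these were 58 for *Krt7*, 1249 for *Krt8*, 700 for *Krt18*, 1578 for *Krt19* and 331 for *Krt20*. In the 354 and 261 such wells of dataset 2 they were 14, 773, 1533, 392 and 4 in the same order of genes.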

How the results depend on the processing

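For mature pit against pre-pit cells of dataset 2, where 0 of 3 keratins were called, DESeq2 and RLE factors each called 1, and no filter on low counts, the replicate block, sums per plate and leaving out the cells of highest UMIs each called 2. Leaving out 1 sum gave 0 to 1 there, 0 to 2 for pre-pit against isthmus cells, 1 to 3 for chief against neck cells, 1 to 2 for antrum against corpus pit cells and 1 to 2 for corpus maturation. It gave 2 to 3 for neck against isthmus, 3 to 4 for parietal against isthmus and 2 to 3 within the isthmus. With no filter on low counts 5 keratins were called within the isthmus, and 0 against clusters 3 and 9 only. *Krt20* in neck against isthmus cells changed sign, from -4.22 to 0.0235, without cluster 11. The alternatives of isthmus cluster 11 were chosen after seeing the data. The replicate block moved no other count of called keratins by over 1.5 times, and the causes of these changes were not tested. *Krt20* in dataset 2 rests on 556 UMIs, which limits what its levels can show. Against levels from summed counts, 146 levels moved by less than 1 SD when taken as the mean over cells, and 29 by more. At 5000 UMIs per cell 52 shares of cells left their interval and 123 did not, and with at least 2 UMIs required 72 did and 103 did not.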
